A study of Zea mays and Triticum urartu with 3 samples.

Results

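The loci described here lay in the distal ends of the 7 chromosomes of *Triticum urartu*, the wild diploid wheat that gave cultivated wheats their A subgenome. A locus was counted as distal when its midpoint, divided by the largest listed locus end of its chromosome, was below 0.10 or at least 0.90. By this rule 16739 of the 45337 wheat loci listed on these chromosomes, Tu1 to Tu7, were distal. The 3 tables of the series together listed 136722 loci. RNA came from young leaves of the genotype TMU38, grown in a greenhouse, and was sequenced as 1 library that the labels call lncRNA. The other libraries were made from young leaves of the maize inbred line B73, 1 of them from RNA precipitated with an anti-CENH3 antibody and 1 from input RNA, and they enter no comparison below. No treatment or antibody was named for the wheat sample, which the study's methods treat as lncRNA sequencing, although its label repeats the extraction text of the precipitated RNA.

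In wheat and its relatives, genes and crossovers are concentrated towards the chromosome ends, whereas the middle of each chromosome is packed with retrotransposons and recombines rarely. The ends are known for families of duplicated genes, among them many resistance genes, which are often used only in certain tissues or under stress. Long noncoding RNAs are transcripts without a long reading frame, and a locus assembled outside annotated genes is a candidate for one but may also be a missed exon, a transposon transcript or a fragment of a gene. The gene identifiers of this genome were not paired with names in the sources used here. The functions of single loci are therefore not given, and the leaf label could not be checked against marker genes.

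Values are FPKM, which divides fragments by transcript length and by the size of the library, with the lower and upper confidence limits of the deposited table. Loci with a TuG1812 gene identifier are called annotated, and those whose gene name is "-" are called unannotated. How many fragments lay behind an FPKM was worked out from the limits, and the result is called implied fragments. The loci on Tu1 to Tu7 held about 9863549 of them, 2889228 in the distal ends. Totals, shares and rankings of the library below refer to these loci. Because the wheat was represented by 1 library and loci are not replicates, no test was possible. The 95% intervals given with shares, ratios and medians cover the counting and spread of loci in this library only.

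The distal ends were the gene-rich part of every chromosome. By construction they cover 932 of 4661 Mb, and they held 39.5% of the annotated loci (14766 of 37398). This corresponded to 15.8 annotated loci per Mb, against 6.07 in the rest of the chromosomes, a 2.61-fold higher density (2.56 to 2.66). The distal density exceeded that of the rest on 7 of 7 chromosomes, with ratios from 1.63 on Tu5 to 3.17 on Tu6. Tu2 had the densest ends, with 18.4 annotated loci per Mb in the end at the chromosome start and 18.2 in the far end. The start end of Tu5 was the sparsest of the 14 ends, with 10.6 per Mb, and was still denser than the rest of any chromosome, which ranged from 4.67 to 7.65 per Mb.

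A smaller part of these distal genes had RNA in the leaf library. FPKM was above 0 at 4481 of 14766 distal annotated loci, or 30.3% (29.6% to 31.1%). In the rest it was above 0 at 10529 of 22632 loci, or 46.5% (45.9% to 47.2%), and over all annotated loci the share was 40.1%. The difference was −16.2 percentage points (−17.2 to −15.2). The same order held for loci of at least 1 FPKM, which made up 22.1% of the distal and 35.3% of the other annotated loci, with 30.1% over all. Since leaves are a mixture of cell types, RNA from few cells and little RNA in each cell cannot be told apart.

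The surplus of distal genes was thus mainly one of loci listed at 0. Annotated loci at 0 numbered 11.0 per Mb in the distal ends and 3.25 in the rest, a ratio of 3.40 (3.31 to 3.49). Annotated loci above 0 numbered 4.81 and 2.82 per Mb, a ratio of 1.70 (1.64 to 1.76). Even so, leaf-expressed genes were denser at the ends than in the pooled rest, though not than in every stretch of it. Just outside the far end, from 0.85 to 0.90, annotated loci above 0 numbered 4.67 per Mb. The distal stretch from 0.05 to 0.10 held fewer, 4.39 per Mb. Just outside the start end, from 0.10 to 0.15, the value was lower, at 3.43 per Mb. Implied fragments numbered 3099 per Mb in the distal ends and 1870 in the rest, a ratio of 1.66, and the ends held 29.3% of the library. On Tu5 the order was the other one, with 3100 against 3254 per Mb, and on Tu2 the values were close, with 3334 against 3306. On the remaining chromosomes the distal value was the higher one. On Tu7, with 4368 against 1729 per Mb, this order rested on 1 locus, which held 426036 of the 628744 distal fragments. A few loci weigh heavily in such totals, and the inner stretch from 0.30 to 0.35 held 3828 per Mb.

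**Figure D1:**
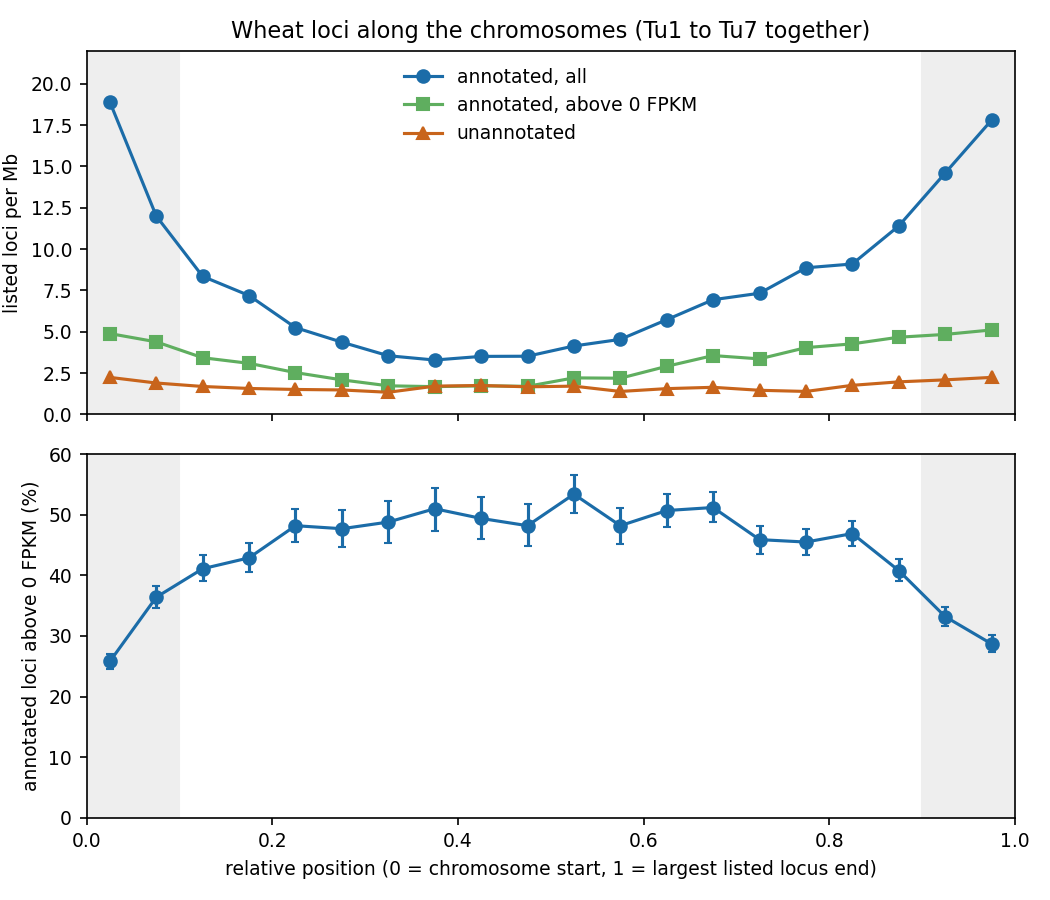
Wheat loci along the relative length of Tu1 to Tu7, in 20 bins of 0.05, with the distal ends shaded. The upper panel shows listed loci per Mb and the lower panel the percentage of annotated loci above 0 FPKM with 95% Wilson intervals; annotated density falls from 18.9 per Mb in the first bin to 3.29 at its lowest, while the share above 0 is lowest, at 25.8%, in the first bin.

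Towards the ends the number of genes and the share with RNA changed in opposite directions. From the first bin of 0.05 to the second, the number of annotated loci fell from 4410 to 2805 and the share above 0 went from 25.8% to 36.4%. At the far end the last bin held 17.8 annotated loci per Mb, of which 28.7% were above 0, and the bin before it held 14.6 per Mb, of which 33.2% were above 0. In the middle of the chromosomes, between 0.40 and 0.60, density was 3.93 per Mb and 49.9% of loci were above 0. Annotated loci above 0 numbered 4.89 and 4.39 per Mb in the first and second bins and 4.84 and 5.11 per Mb in the last 2. In the adjoining bins outside the ends they numbered 3.43 per Mb (0.10 to 0.15) and 4.67 per Mb (0.85 to 0.90). The middle held 1.96 per Mb.

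Within the ends the gradient continued to the tips. In the outermost 0.01 of both ends, annotated loci numbered 20.3 per Mb and 23.8% (21.9% to 25.7%) were above 0. Between 0.04 and 0.05 from the nearer end the values were 15.2 per Mb and 28.9%. Just inside the boundary, between 0.09 and 0.10, they were 12.4 per Mb and 36.0% (33.2% to 38.8%), and just outside it, between 0.10 and 0.11, they were 10.5 per Mb and 40.6% (37.5% to 43.7%). The boundary of the rule therefore cut through an uneven slope, and the intervals of the share on either side of 0.10 overlapped.

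The low share with RNA was found at each of the 14 ends. It ranged from 23.0% (20.7% to 25.5%) at the far end of Tu3 to 39.8% (36.4% to 43.3%) at the start end of Tu4. In the rest of the chromosomes it ranged from 43.0% on Tu5 to 50.6% on Tu4, so that the ends and the rest did not overlap. By chromosome, the distal share was 25.6% on Tu7, 27.5% on Tu3, 29.5% on Tu2, 30.0% on Tu6, 31.7% on Tu1, 34.0% on Tu5 and 37.7% on Tu4. Tu3 had the widest gap to its own rest, at −21.4 percentage points, and Tu5 the narrowest, at −9.00. The ends of 1 chromosome were not always alike. On Tu3, 31.6% (29.1% to 34.2%) of the loci at the start end were above 0 against 23.0% at the far end, and on Tu1 the order was turned, with 27.0% (24.2% to 29.9%) at the start and 36.0% (33.1% to 39.0%) at the far end. Their intervals did not overlap on either chromosome.

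**Figure D2:**
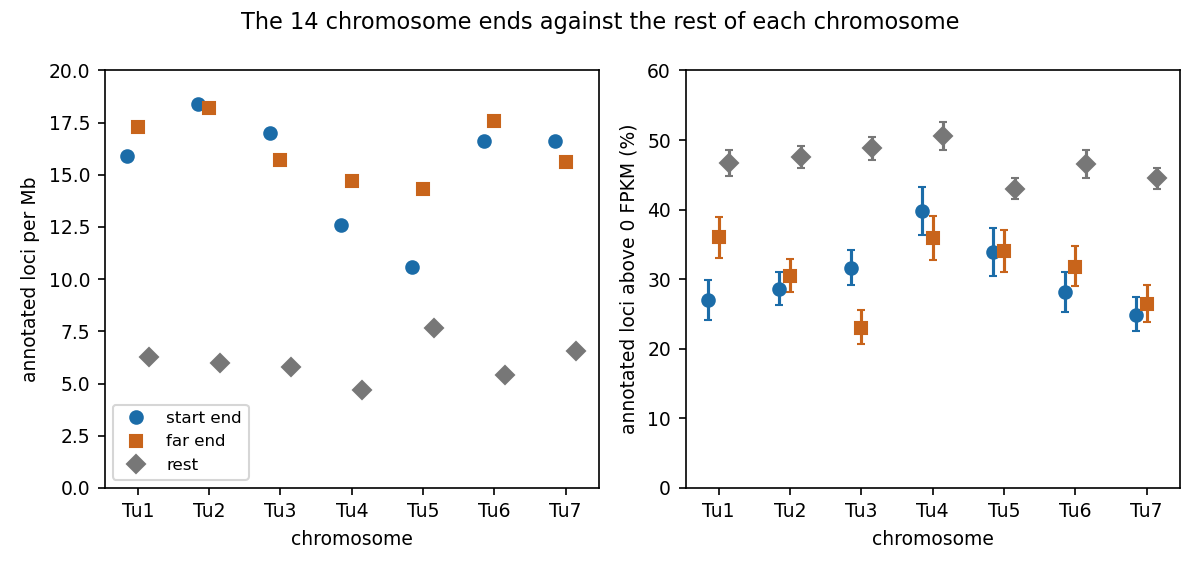
The start end, the far end and the rest of each chromosome, with annotated loci per Mb on the left and the percentage of annotated loci above 0 FPKM with 95% Wilson intervals on the right. The 14 ends lie between 10.6 and 18.4 loci per Mb, all above the rest, and between 23.0% and 39.8% above 0, all below the rest.

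Distal annotated loci were also shorter, with a median span of 1996 bp against 2573 bp in the rest, and shorter on 7 of 7 chromosomes. Longer loci were more often above 0 in either part, so the share was read within classes of span. Under 1000 bp, 9.36% of the distal and 13.7% of the other annotated loci were above 0. From 1000 to 2000 bp the shares were 21.5% and 32.7%, and from 2000 to 4000 bp they were 39.3% and 53.3%. At 4000 bp or more they were 52.6% and 71.1%. The distal share was the lower one in 4 of 4 classes, and the gap was narrowest among the shortest loci, at −4.35 percentage points.

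The span is not independent of expression in this table. Some annotated loci carried an assembled identifier beside the gene name, and how their bounds were set was not checked. Such loci made up 11.8% of the distal and 20.8% of the other annotated loci, with median spans of 4490 and 4973 bp, and 1604 of 1743 and 4473 of 4706 of them were above 0. Among loci listed under their own gene identifier, the shares above 0 were 22.1% in the distal ends and 33.8% in the rest, with median spans of 1753 and 2016 bp.

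Spacing between genes gave the same order. The median gap to the nearest annotated locus was 5722 bp in the distal ends and 6682 bp in the rest, and the upper quartiles were 20976 and 55476 bp. Close neighbours were nearly as frequent outside the ends, with gaps under 5 kb at 47.0% of the distal and 46.0% of the other loci. Isolated genes were rarer at the ends, where a gap of at least 100 kb was found at 4.46% of the distal and 17.5% of the other annotated loci. These isolated distal loci were above 0 in 28.5% of cases (25.2% to 32.1%), against 49.4% (47.9% to 51.0%) of isolated loci elsewhere. At gaps under 5 kb the shares were 35.1% and 49.2%.

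**Figure D3:**
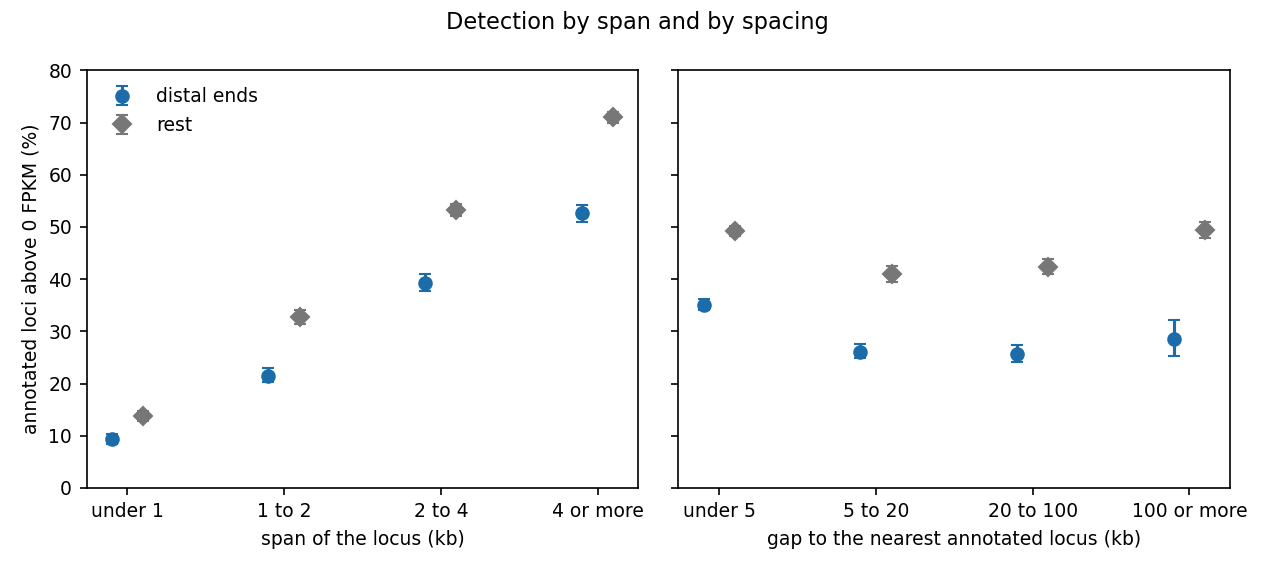
Percentage of annotated loci above 0 FPKM by span of the locus (left) and by gap to the nearest annotated locus (right), both in kb, with 95% Wilson intervals. In each class the distal ends lie below the rest, from 9.36% against 13.7% in the shortest span class to 52.6% against 71.1% in the longest.

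Neighbouring annotated loci were more often both at 0 in the distal ends than in the rest. Of 14752 pairs of neighbouring distal annotated loci, 51.6% were both at 0, 12.3% both above 0 and 36.2% mixed. In the rest the values were 30.9%, 24.0% and 45.1% of 22625 pairs. Runs of 10 or more neighbouring loci at 0 numbered 193 in the distal ends and held 2807 loci, or 19.0% of the annotated loci there. In the rest 57 such runs held 3.14%. A higher share at 0 raises the share of such pairs and lengthens runs by itself, and no test of clustering was made.

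The longest run of loci at 0 covered 36 annotated loci at Tu2:8088524-9777285. It was followed by 28 loci at 0 at Tu2:10134648-10902074 and 30 at Tu2:10977486-12396727. Over the whole stretch from the first to the last of these, 4.31 Mb, 5 of 107 annotated loci were above 0, with a highest value of 5.09 FPKM. This stretch was chosen after its values were seen. Nearer the tip, 34 loci at 0 lay at Tu2:2822823-3416695. On Tu3, runs of 33 and 28 loci at 0 lay at Tu3:10888482-13346362 and Tu3:731341127-733100415, in the 2 opposite ends.

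Runs of expressed genes were short in comparison. Only 2 runs reached 10 annotated loci above 0 in the distal ends, against 15 runs of this size in the rest, where the longest had 15. These runs held 0.135% of the distal and 0.738% of the other annotated loci. A lower share above 0 shortens such runs by itself. The run at Tu1:2878912-3017127 packed 10 expressed genes into 138 kb, with 0.957 to 51.3 FPKM and a median of 5.48. Its highest member, at Tu1:2908881-2912499, had 51.3 FPKM (49.0 to 53.6). The run at Tu5:11919722-12638990 spread over 719 kb, with 1.29 to 244 FPKM and a median of 7.91. Its highest locus, at Tu5:12614143-12615292, had 244 FPKM (237 to 252), and within the run lay 9 unannotated loci, 8 of them within 12246548 to 12257386 of that chromosome.

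Once a distal gene had RNA, its level was close to that of genes elsewhere, with a wider spread of FPKM. At annotated loci of 300 bp or longer and above 0, the median was 2.60 FPKM (2.42 to 2.80, 4474 loci) in the distal ends and 2.96 (2.84 to 3.08, 10511 loci) in the rest. The distal median was the lower one on 7 of 7 chromosomes, by ratios from 0.678 on Tu1 to 0.979 on Tu4. Its order depended on the measure, since implied fragments per kb of span gave 19.8 in the distal ends and 18.1 in the rest. Of the distal loci above 0, 27.1% (25.8% to 28.4%) were under 1 FPKM, against 24.1% (23.3% to 24.9%) in the rest.

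At the upper end of the range the order turned. The 90th percentile was 26.2 FPKM (22.8 to 28.3) in the distal ends and 21.2 (19.9 to 22.2) in the rest. It was the higher one on 6 of 7 chromosomes, the exception being Tu7, with 19.0 against 22.7 FPKM. The 95th percentiles were 51.3 (45.2 to 58.8) and 41.6 (38.3 to 45.2), and the 10th percentiles were 0.354 and 0.417 FPKM. These percentiles were not worked out by implied fragments per kb. Levels of 100 FPKM or more were reached by 126 distal loci, 2.81% (2.37% to 3.34%) of those above 0, and by 231 loci, 2.19% (1.93% to 2.49%), in the rest, with overlapping intervals. Over all annotated loci, those at 0 included, the order was the other one, with 0.853% (0.717% to 1.01%) of the distal and 1.02% (0.898% to 1.16%) of the other loci at 100 FPKM or more, and 6.20% (5.82% to 6.60%) against 9.95% (9.57% to 10.4%) at 10 FPKM or more. Of the annotated loci of 300 bp or longer with the highest FPKM in the library, 1 of the first 10 and 39 of the first 100 were distal. Of the 100 loci with the most implied fragments, 34 were distal. For comparison, the distal ends held 39.5% of all annotated loci, 29.9% of the annotated loci above 0 and 36.9% of all listed loci.

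**Figure D4:**
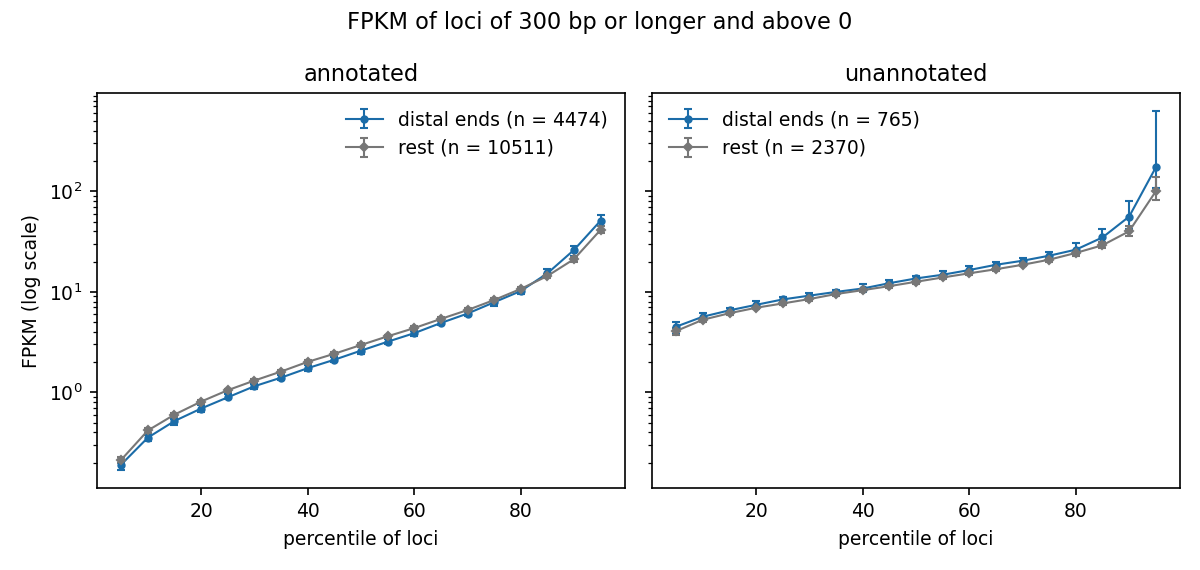
FPKM (log scale) at each 5th percentile of loci of 300 bp or longer and above 0, for annotated loci on the left and unannotated loci on the right, with 95% order-statistic intervals. Annotated distal loci run below the rest at the median (2.60 against 2.96) and above it at the 90th percentile (26.2 against 21.2).

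The 8 annotated loci with the highest distal FPKM lay on 6 chromosomes. Among 3572 eligible annotated loci of 300 bp or longer with 20 or more fragments, the highest was TuG1812G0400003229.01 (Tu4:570189014-570189321), with 16034 FPKM (15796 to 16273). It spanned 308 bp, close to the minimum span used here, and had 18125 implied fragments. FPKM is inflated at short loci. TuG1812G0400000662.01, at the other end of the same chromosome (Tu4:50594785-50595927), had 6017 FPKM (5944 to 6091). By fragments the first was TuG1812G0700005785.01 (Tu7:700664736-700668258), 19.0 Mb from the end of Tu7, with 5329 FPKM (5313 to 5346). It alone held 426036 implied fragments, 4.32% of the library and 14.7% of the distal total.

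Other loci of this group lay on Tu1, Tu3 and Tu5. The locus at Tu5:612600296-612602679 had 3434 FPKM (3415 to 3454) from 123952 fragments. At Tu3:23239328-23240502 the level was 4221 FPKM (4192 to 4251) from 82462 fragments, and at Tu1:547557861-547558775 it was 4240 FPKM (4204 to 4275) from 57113. A longer gene, TuG1812G0100000879.01 (Tu1:53941500-53946978), was the fourth by fragments, with 74357, although its level was 581 FPKM.

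A pair of highly expressed loci lay within 29.5 kb on Tu2. The locus at Tu2:28319498-28320531 had 3961 FPKM (3914 to 4008) and that at Tu2:28291062-28291977 had 3366 (3334 to 3398). Of the 3 annotated loci listed between or over them, 2 were at 0. The third, at Tu2:28319176-28320517, overlapped the first of the pair and had 240 FPKM (234 to 246). Without strand in the table, reads of overlapping loci could not be assigned to one of them, and the same holds for near-identical gene copies.

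Loci with RNA were found close to the tips. The rule for eligible loci asks for RNA, so this search could return only loci with RNA. The eligible locus nearest to each of the 14 ends lay 0.00229 to 1.70 Mb from the end, within 1 Mb in 13 cases. It was an annotated gene in 14 cases, and most eligible distal loci were annotated, 3572 against 611 unannotated. Their levels ranged from 0.821 to 210 FPKM with a median of 4.09. The highest was on Tu6, at Tu6:1696930-1699818, with 210 FPKM (205 to 215), and the next, at Tu7:185355-190868, had 18.6 FPKM (17.6 to 19.6). The locus nearest to an end, Tu4:619557175-619561763, had 3.29 FPKM (2.78 to 3.79). Ends are those of the listed loci, not of the assembled chromosomes.

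Unannotated loci were also denser at the ends, by less than annotated ones. The distal ends held 1973 of 7939 of them, 24.9%, which gave 2.12 per Mb against 1.60 in the rest, a ratio of 1.32 (1.26 to 1.39). Annotated loci above 0, the closer counterpart, had a ratio of 1.70 (1.64 to 1.76). The unannotated ratio was above 1 on 7 of 7 chromosomes, from 1.10 on Tu3 and Tu5 to 1.85 on Tu4. Unannotated loci made up 11.8% (11.3% to 12.3%) of the distal loci, against 20.9% (20.4% to 21.3%) in the rest and 29.3% in the middle between 0.40 and 0.60. Among loci above 0 they made up 30.6% of the distal loci and 36.2% of the rest. All 1973 were above 0, with a lowest value of 1.62 FPKM, as were all 7939 on Tu1 to Tu7. Their share above 0 therefore could not differ by position.

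The median level of unannotated loci did not stand apart by position. At 300 bp or longer, 765 distal loci had a median of 13.6 FPKM (12.5 to 14.4) and 2370 others had 12.6 (12.1 to 13.1), with overlapping intervals. The distal median was the higher one on 4 chromosomes and the lower one on 2, and on Tu4 both were 12.4. By implied fragments per kb the medians were 75.6 and 75.7. As for annotated loci, the upper percentiles by FPKM were higher in the distal ends. The 90th percentile was 56.1 FPKM (42.1 to 80.9) against 40.1 (35.8 to 45.2), although here the intervals overlapped. The percentiles were not worked out by implied fragments per kb. The levels of unannotated and annotated loci cannot be compared directly, even above 0. Of the distal annotated loci above 0, 27.1% were under 1 FPKM, whereas no distal unannotated locus was listed below 1.62 FPKM. Most unannotated loci were short, with median spans of 264 bp in the distal ends and 272 bp in the rest, and 61.2% of the distal ones were under 300 bp.

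Distal unannotated loci overlapped genes less often and lay close beside them more often than those in the rest. Of the 1973, 639 (32.4%, 30.4% to 34.5%) overlapped an annotated locus, against 40.4% (39.2% to 41.7%) in the rest. A further 13.6% (12.2% to 15.2%) lay within 1 kb of one, against 8.77% (8.07% to 9.51%), and 21.0% lay at 1 to 10 kb, against 15.1%. More than 10 kb from any annotated locus were 33.0% (31.0% to 35.1%) in the distal ends and 35.7% (34.5% to 36.9%) in the rest. The density of annotated loci differs between the 2 parts and sets how near a neighbour can be, so these shares do not separate a preference for genes from the number of genes. In the distal ends the median level at 300 bp or longer was 11.6 FPKM at overlapping loci and 14.8 at those beyond 10 kb.

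A few unannotated loci held most of their RNA. The first, Tu1:554480071-554481248, had 4965 FPKM (4935 to 4995) from 109489 fragments, which was 34.9% of the fragments on distal unannotated loci and 1.11% of the library, and it had more fragments than any unannotated locus elsewhere. With it, the distal ends held 39.5% of all fragments on unannotated loci, and without it 29.8%. The next was at Tu7:678049467-678049766, a locus of 300 bp with 30752 FPKM (30401 to 31104) from 30669 fragments. The locus at Tu3:46787749-46788802 had 1178 FPKM (1162 to 1194) and that at Tu6:25282471-25283382 had 1037 (1021 to 1054). Together these 4 loci held 57.0% of the fragments on distal unannotated loci.

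The highest FPKM values of unannotated loci belonged to scarce RNA. The first by FPKM, Tu6:541140135-541140513, had 9296340 FPKM (5782650 to 12810000) from 28.0 implied fragments. The next were Tu4:19927021-19927330 with 8964330 FPKM from 27.0 fragments, Tu3:714646775-714647569 with 8632310 from 26.0 and Tu1:45657105-45658451 with 7304330 from 21.0. In all, 238 distal loci had more than 100000 FPKM per implied fragment, and 206 of them spanned 125 bp. They made up 12.1% of the distal unannotated loci, 98.7% of the distal FPKM sum and 0.151% of the distal fragments. In the rest, 522 such loci made up 8.75% of the unannotated loci. For this reason, levels are given as medians and percentiles and not as sums of FPKM.

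On Tu7, 3 further loci had high FPKM from few fragments. Tu7:685735387-685736227 had 4387280 FPKM from 226 fragments, Tu7:10316090-10427606 had 635211 from 62.0 over 111517 bp, and Tu7:47480021-47480849 had 471286 from 46.0. When loci above 100000 FPKM per fragment were passed over, a choice made after the values were seen, the 8 highest added Tu7:5561019-5561977 with 11226 FPKM from 67.0 fragments, Tu3:728883645-728885544 with 7885 from 322 and Tu4:50009201-50017864 with 4111 from 533. Of these 8 loci, only those at Tu1:554480071-554481248 and Tu7:678049467-678049766 rested on more than 1000 fragments.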

How the data were processed

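RNA of 1 wheat library (TMU38, young leaves) was analysed, and its group was taken from the sample title. The deposited FPKM per locus and its confidence limits were made by the authors with Cufflinks after alignment with TopHat2 2.0.12, per the submitters' processing notes. The build named there is that of maize, B73 RefGen_v4, and the wheat build and annotation version were not given in the sources used here. FPKM is scaled to library size and effective length, so it is inflated at short loci, and no raw count was used. Listed starts count from 0: in 124 maize organellar genes, end minus start could be divided by 3 in 85.5%, and in 7.26% after 1 was added. Starts are printed here counted from 1.

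Implied fragments were (2 × FPKM/(upper limit − FPKM)) squared and were whole within 0.02 at 68.1% of the distal loci above 0. They cover loci listed on Tu1 to Tu7 only and are not sequenced reads. Any wheat loci listed elsewhere were left out of all counts and totals of wheat loci. Chromosome length was the largest listed locus end. Shares have Wilson intervals and medians rank intervals at 95%, for counting error only. A self-test on simulated data preceded the calculations, made with Python 3.11.15, numpy 2.4.6, pandas 2.3.3 and scipy 1.17.1.

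The positions, classes and rules were chosen with earlier results of these data known. Named loci were the 8 annotated and 8 unannotated distal loci with the highest FPKM (300 bp or longer, 20 or more fragments, lower limit above 0), the 4 of each kind with the most fragments, the eligible locus nearest to each end and the longest runs. Alternatives varied boundary, comparison region, span, detection threshold, pseudocount and chromosomes. The 21 distal loci with the status LOWDATA were kept. No identifier was paired with a name, so 4 identifiers are printed and the remaining loci appear by coordinates. No sequence is shown, since no wheat genome was used here.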

Additional observations from a re-analysis of the deposited data

How the results depend on the processing

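The results kept their direction under the alternatives run, except in the 3 cases given next. The median of annotated loci above 0, distal over rest, was 1.09 by implied fragments per kb instead of 0.879 by FPKM, and that of unannotated loci was 0.998 instead of 1.08. The mean log2(FPKM + 1) of annotated loci, zeros included, was −0.39 in the distal ends relative to the rest and 0.048 (−0.020 to 0.117) among loci of at least 1 FPKM, since that filter removes the loci at 0.

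With the boundary at 0.05 and 0.95, the density ratio of annotated loci was 2.67 and the share of fragments in the ends 15.6%. With 0.20 and 0.80, the density ratio was 2.44 for annotated and 1.25 for unannotated loci, the difference in the share above 0 was −13.8 percentage points, that in the unannotated share −9.92, that in the mean log2 value −0.35, and the ends held 44.7% of the fragments. Against 0.40 to 0.60 only, these were 4.03 for annotated density, −19.5 and −17.5 percentage points, −0.50 on the log2 scale and 64.5% of the fragments of both regions. The difference in the share above 0 was −13.2 points at 1 FPKM or more, −11.7 at loci under their own gene identifier, and −4.35, −11.2, −14.0 and −18.5 points in the 4 span classes from the shortest to the longest, the last 5 values being added after the data had been seen. The difference for unannotated loci, 0 by construction, was 0.301 points at 10 or more fragments. The unannotated share differed by −4.64 points at 300 bp or longer and by −5.60 among loci above 0, the latter added after the data had been seen. A pseudocount of 0.1 gave −0.86 on the log2 scale. The distal share of fragments was 26.1% without the locus with the most, 31.5% without the 10 with the most and 28.4% at annotated loci.

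Leaving out each chromosome in turn gave density ratios of 2.53 to 2.82 for annotated and 1.26 to 1.37 for unannotated loci, differences of −17.4 to −15.2 points in the share above 0 and −9.62 to −8.46 in the unannotated share, ratios of the medians of 0.851 to 0.908 and 1.06 to 1.12, mean log2 differences of −0.422 to −0.373 and 27.4% to 32.4% of the fragments. The median with zeros included could not be given as a ratio, since both medians were 0. No paired analysis was possible because the wheat group had 1 library. The depth limits low genes: a locus at 0 may hold RNA below what this library could show.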
